A study of Mus musculus with 20 samples.

Results

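The peptidylarginine deiminase genes Padi1, Padi2, Padi3 and Padi4 were examined in whole atria of mice that carry a missense allele of Tbx5. They were taken by gene symbol, and in the left atrium by the matching Ensembl identifier, as 4 genes of 33446 in the right atrium table and 41128 in the left atrium table. Padi2 (ENSMUSG00000028927) was chosen by its normalized read counts in these libraries, which were known to be much higher in mutant atria. Its difference between genotypes is therefore given as a description, with no test, and the other members were taken as its relatives.

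Peptidylarginine deiminases are calcium-dependent enzymes that turn arginine residues within proteins into citrulline, which removes a positive charge from the side chain. PADI2 is the most widely expressed member and is known from brain, where myelin basic protein is a substrate, and from skeletal muscle. PADI4 is known from granulocytes, where it enters the nucleus and citrullinates histones. PADI1 and PADI3 are known from epidermis and hair follicle, where filaggrin, trichohyalin and S100A3 are substrates.

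The allele, Tbx5 G125R, was made with CRISPR-Cas9 and changes an amino acid of the T-box transcription factor TBX5, which acts in the atria and the conduction system. Right atria of Tbx5G125R/+ females, right atria of control females, left atria of Tbx5G125R/+ females and left atria of control females gave 5 RNA-seq libraries each, from tissue taken between 8 and 12 weeks of age. All cells carry the allele in the heterozygotes, and whole tissue was used, so that cardiomyocytes, fibroblasts, vessels and blood cells were read together. Because the tissue was not separated, a higher count from more cells of a type and a higher count from more RNA per cell cannot be told apart. The labels do not state whether right and left libraries share animals.

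Libraries held 17.5 to 26.8 M reads in the right atrium and 19.1 to 24.8 M in the left atrium. Mitochondrial rRNA took 7.28% to 15.7% of the reads in right and 19.5% to 46.7% in left libraries, and the highest share belonged to control left atrium 4, which also had the fewest genes with a read, 17019. The count of the targeted gene, Tbx5, does not separate the alleles. It averaged 6153 ± 584 in mutant and 6113 ± 1088 in control right atria (SD, n = 5 each, adjusted p = 0.937 by limma), and 1520 ± 189 in mutant and 1459 ± 329 in control left atria (adjusted p = 0.794). All 11 cardiomyocyte markers, among them Myh6 and Nppa, passed the filter on low values in both atria.

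The 4 genes lie in 1 cluster on mouse chromosome 4 that spans 207 kb (GRCm38). Padi4 (140745865 to 140774236), Padi3 (140785365 to 140810648) and Padi1 (140812983 to 140845778) are read from the minus strand. Padi2 (140906344 to 140952586) is read from the plus strand, so that its start faces that of Padi1. Those upstream stretches are shown because they belong to the pair of neighbouring members read in opposite directions, 1 with the higher count in mutants and 1 close to undetected. They are RefSeq sequence of GRCm38.p6, 5′ to 3′ along the gene, from chr4:140906110-140906335 on the plus strand for Padi2 and chr4:140845779-140846028 on the minus strand for Padi1. Capitals mark matches on either strand to GGGCGG, the letters of the GC box, and to AGGTGT, the core of the T-box motif.
Padi2: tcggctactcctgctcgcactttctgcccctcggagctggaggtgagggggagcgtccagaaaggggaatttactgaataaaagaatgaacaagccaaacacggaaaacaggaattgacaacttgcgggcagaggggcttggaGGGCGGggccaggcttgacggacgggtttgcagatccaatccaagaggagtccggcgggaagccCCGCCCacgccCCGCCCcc
Padi1: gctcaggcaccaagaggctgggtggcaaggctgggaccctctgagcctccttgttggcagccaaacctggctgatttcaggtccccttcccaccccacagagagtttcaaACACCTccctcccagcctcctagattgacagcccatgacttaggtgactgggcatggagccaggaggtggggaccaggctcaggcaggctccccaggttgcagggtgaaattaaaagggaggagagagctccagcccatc

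The windows of the 4 genes, of 300 bases with 250 before the start and 50 after it, were compared with all 32851 windows of that length in the table. The stretches printed above, of 226 bases for Padi2 and 250 for Padi1, are shorter than these windows. The Padi2 window held 3 matches to GGGCGG, a run of letters found in 35.7% of windows. It held 22 CG dinucleotides, where the median window held 7 and 76.9% of windows held fewer. The Padi1 window held 3 CG dinucleotides, the Padi3 window 4 and the Padi4 window 8, and only the Padi3 window among these held a GGGCGG match, 1 in number. AGGTGT was found in 13.7% of windows and, among the members, once, in the Padi1 window, on the opposite strand as ACACCT. These matches are a description of the letters and not of binding sites. The study reported increased accessibility in mutant atria at regulatory elements in Padi2 that are bound by Tbx5, and such elements were not examined here.

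In right atria Padi2 was among the abundant transcripts of mutants and at a middling level in controls. Normalized read counts were 5214, 7760, 6232, 8283 and 5218 in mutant replicates 1 to 5, against 937, 561, 705, 827 and 659 in control replicates 1 to 5. No control reached the lowest mutant, as for 3.53% of tested genes, and mutant replicates 2 and 4 lay highest. The means were 6541 ± 1425 in mutants and 738 ± 147 in controls (SD, n = 5 each). On the log2(normalized count + 1) scale the difference was 3.14 ± 0.16 (SE), or 8.83-fold. Among genes that passed the filter, Padi2 stood at percentile 96.35 to 98.17 of a mutant library and at percentile 59.73 to 72.87 of a control library. Of 14288 genes tested, 442 were called higher in mutants at an adjusted p under 0.05 by limma (3.09%), a share from which nothing is read for Padi2.

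In left atria the same gene was near the lower end of the tested genes in controls. Normalized read counts were 404, 274, 237, 350 and 380 in mutant replicates 1 to 5, against 15.5, 19.4, 25.5, 28.6 and 32.4 in control replicates 1 to 5. The groups did not overlap, with all mutants above all controls as for 2.02% of tested genes. The means were 329 ± 71.1 in mutants and 24.3 ± 6.85 in controls, a log2 difference of 3.72 ± 0.23 (SE), or 13.2-fold. The control libraries rested on 17 to 33 reads each, 112 in all (exact Poisson 95% interval 92.2 to 135), against 238 to 572 reads in mutant libraries. Such intervals cover counting error only. Padi2 stood at percentile 55.13 to 66.33 of a mutant library and 6.125 to 21.63 of a control library. Of 13192 genes tested, 100 were called higher (0.758%).

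The log2 change of Padi2 was larger in the left than in the right atrium by 0.58 ± 0.28 (SE), a difference that was not tested because both contrasts chose the gene. The tables of the atria were normalized apart, so that atrium and table cannot be told apart in a level. In reads per M reads outside mitochondrial rRNA, Padi2 had 24.3 ± 7.08 in mutant and 1.58 ± 0.34 in control left atria, against 324 ± 65.3 in mutant and 36.0 ± 7.53 in control right atria. Rcc2, the nearest tested gene outside the family on the Padi4 side, had lower normalized counts in the left table, 51.7 ± 8.50 in mutant and 50.7 ± 8.71 in control left atria, against 535 ± 19.5 in mutant and 557 ± 31.4 in control right atria. These counts are on another scale than reads per M, and genes differed in this. Oat averaged 5471 in control left and 8728 in control right atria, while Azin1 was higher in the left table, at 9851 against 4010 in controls.

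**Figure D1:**
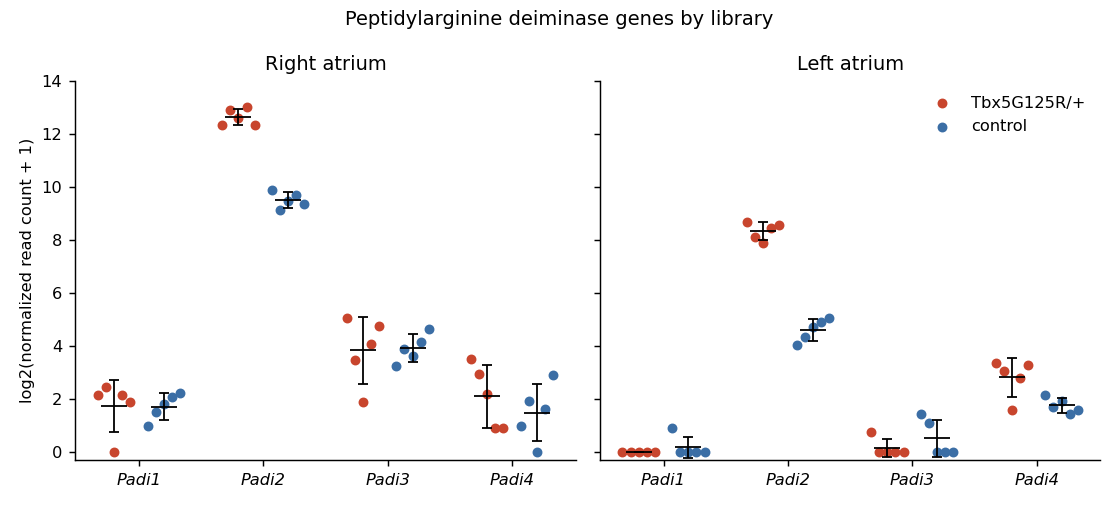
Each point is 1 library, plotted as log2(normalized read count + 1) for the 4 genes in right and left atria, with Tbx5G125R/+ left of control and bars giving the mean and SD of 5 libraries. Padi2 was above all controls in every mutant library of both atria, while the groups overlapped for Padi1, Padi3 and Padi4.

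Padi2 made up most of the reads of the 4 genes in every library. Counted per kb of exon, its share of the reads of the 4 genes was 98.8% to 99.9% in mutant and 93.4% to 98.5% in control right atria, and 97.3% to 99.1% in mutant and 68.2% to 94.3% in control left atria. The mean level of Padi2, in reads per kb of exon and M reads outside mitochondrial rRNA, was 64.7 ± 13.02 in mutant and 7.19 ± 1.502 in control right atria. In the left atria it was 4.85 ± 1.41 in mutants and 0.315 ± 0.069 in controls. Padi3 came next in right atria, at 0.256 ± 0.186 in mutants and 0.210 ± 0.082 in controls on the same scale, while Padi4 came next in left atria, at 0.103 ± 0.050 in mutants and 0.0343 ± 0.0139 in controls. In right atria Padi4 stood at 0.0469 ± 0.0450 in mutants and 0.0247 ± 0.0250 in controls. Padi1 stood there at 0.0376 ± 0.0223 in mutants and 0.0314 ± 0.0137 in controls, so that the order of Padi1 and Padi4 was not resolved. The ranges of Padi3 and Padi4 overlapped in mutant but not in control right atria.

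Padi3, the hair follicle and epidermis enzyme, was the only other member to pass the filter on low values, and only in right atria. It had 32.5, 10.1, 2.66, 15.7 and 25.7 normalized counts in mutant replicates 1 to 5, against 8.57, 13.7, 11.4, 16.9 and 24.0 in control replicates. The groups overlapped along their whole length, with the mutants more widely spread. The log2 difference was -0.07 ± 0.52 (SE), with an adjusted p of 0.958 by limma and an exact two-sided permutation p of 0.683. In left atria only 1 read was seen over the mutant libraries and 3 over the control libraries (exact permutation p = 0.444).

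Padi4, the granulocyte enzyme, was at the limit of detection. In right atria 21 reads were counted over the mutant libraries and 13 over the control libraries, and the groups overlapped (exact permutation p = 0.381). In left atria it had 9.19, 7.31, 1.99, 6.01 and 8.71 normalized counts in mutant replicates 1 to 5, against 3.44, 2.28, 2.84, 1.69 and 1.96 in control replicates. Of the mutant libraries 4 lay above every control and replicate 3 lay among the controls. These values stand for 39 reads in mutants and 12 in controls. The difference had an exact two-sided permutation p of 0.0317 taken alone, where 0.00794 is the smallest p that 5 against 5 can give, but did not pass adjustment over all genes without a filter (log2 difference 1.06 ± 0.45, limma adjusted p = 0.396).

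Padi1, the epidermal enzyme, had 14 reads over the mutant and 12 over the control right atria, with no more than 4 in a library (exact permutation p = 0.667). In left atria no read was seen over the mutant libraries, which allows up to 3 reads, and 1 over the control libraries, too few for a test. The fifth gene of the family, Padi6, known from oocytes, was at 0 in mutant right atria and had 1 read in each of 2 control right atria. A change of Padi1 or Padi6 was not detectable at this depth.

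Reads within Padi2 can also fall on smaller annotated genes. Gm26226, a U6 snRNA gene inside the Padi2 body on the same strand, had 1, 10, 8, 6 and 3 reads in mutant right atria, against 0, 4, 0, 1 and 0 in control right atria. Gm13031, an antisense gene across the end of Padi2, had 0, 1, 7, 5 and 3 reads in mutants, against 6, 7, 2, 2 and 5 in controls. The library kit does not mark strand, so that reads of Padi2 and of an antisense partner cannot be told apart, although these counts are small beside the 4487 to 9480 reads of Padi2 in mutant and 558 to 984 in control right atria.

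Next, the genes around the cluster were examined. Within 500 kb of either end 42 further genes are annotated, of which 14 were tested in right and 10 in left atria. None was called in either atrium by limma, where 6.23% of all tested genes were called in right and 1.2% in left atria, nor by edgeR or DESeq2 on recovered reads. At an unadjusted p under 0.05 by limma lay 3 in right atria (Arhgef10l, Arhgef19 and Epha2) and 1 in left atria (Hspb7). For counts at that unadjusted threshold, here and in the gene lists, the share over all tested genes was not computed. Nothing is read from such counts. Log2 changes ran between -0.36 and 0.46 in right atria, with a median of -0.06, and between -0.16 and 0.70 in left atria, with a median of 0.08, beside a median of -0.01 over all tested genes of either atrium. The lowest adjusted p was 0.0896 in right atria, for Epha2, an ephrin receptor (log2 change 0.46 ± 0.15), and 0.301 in left atria. Without control replicate 1 Epha2 passed in right atria (0.58 ± 0.12, adjusted p = 0.013).

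The nearest tested genes on either side of the cluster overlapped between groups. Rcc2, a chromosome condensation regulator, differed by -0.06 ± 0.06 on the log2 scale in right atria (adjusted p = 0.637 by limma) and by 0.03 ± 0.21 in left atria (adjusted p = 0.941). Sdhb, a subunit of succinate dehydrogenase that lies just downstream of Padi2, had 8269 ± 447 normalized counts in mutant and 9299 ± 1346 in control right atria, a log2 difference of -0.16 ± 0.09 (adjusted p = 0.344). In left atria it had 2467 ± 722 in mutants and 2006 ± 291 in controls, a log2 difference of 0.26 ± 0.19 (adjusted p = 0.449).

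**Figure D2:**
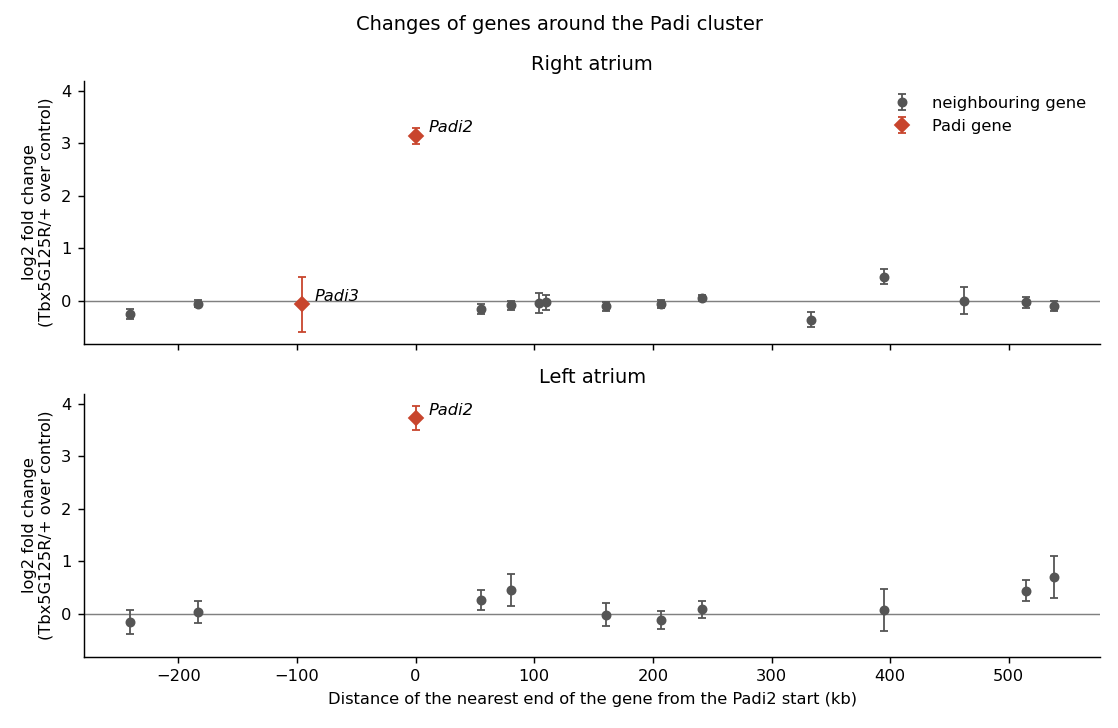
Points give the log2 fold change, Tbx5G125R/+ over control, with its SE for every tested gene within 500 kb of the cluster, against the distance of its nearest end from the Padi2 start in kb, in right and left atria. Padi2 stood at 3.72 on the log2 scale in left and at 3.14 in right atria, while the neighbours ran between -0.36 and 0.70.

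Arginine and citrulline metabolism was followed with 32 genes: transporters, arginases, the citrulline recycling enzymes, nitric oxide synthases, and the enzymes that methylate arginine residues or use arginine otherwise. This list and those below were drawn up with earlier results of these data known. Their counts of called genes and p-values are therefore descriptions. In right atria 27 were tested, 1 rose, none fell and 26 did not pass the test, beside 6.23% of all tested genes called. The median log2 change was -0.01, equal to that of all tested genes, and 7 genes had an unadjusted p under 0.05. In left atria 22 were tested and none was called by limma (1.2% over all tested genes), with 5 at an unadjusted p under 0.05, 0 called by edgeR and 1 by DESeq2, and a median of 0.07.

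The gene that rose was Slc7a1, the cationic amino acid transporter that brings arginine into cells. It had 2188, 2826, 2592, 1990 and 2591 normalized counts in mutant right atria, against 859, 961, 837, 910 and 1328 in control right atria. All mutants were above all controls, as for 3.53% of tested genes, and the log2 difference was 1.32 ± 0.13 (limma adjusted p = 3.59e-05). In left atria Slc7a1 had 1542, 1315, 1128, 675 and 1286 in mutants, against 584, 507, 631, 659 and 1013 in controls, with mutant replicate 4 among the controls, and its log2 difference of 0.80 ± 0.23 did not pass (adjusted p = 0.131).

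The most abundant members that were not called were Oat, ornithine aminotransferase, and Azin1, which counters the inhibitor of ornithine decarboxylase. Oat differed by -0.07 ± 0.06 in right atria (adjusted p = 0.575 by limma) and by -0.14 ± 0.20 in left atria (adjusted p = 0.690) on the log2 scale. Azin1 differed by 0.04 ± 0.06 in right atria (adjusted p = 0.697) and by -0.40 ± 0.22 in left atria (adjusted p = 0.351). Both overlapped between genotypes in each atrium.

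Of 26 genes for proteins that have been reported as deiminase substrates, 20 were tested in right atria, of which 2 rose, 1 fell and 17 did not pass by limma, beside 6.23% of all tested genes called. Of those that rose, S100a3 passed the filter on low values through the mutant libraries alone, so its place in the count is no support. DESeq2 called 2 higher and 3 lower, edgeR called 3, and with all 4 groups in 1 model 1 was called. The median log2 change was -0.05. In left atria 18 were tested and none was called by limma (1.2% over all tested genes), with 5 at an unadjusted p under 0.05, 0 called by edgeR and 1 by DESeq2, and a median of 0.23. The counts say nothing about citrullination, since RNA was measured.

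S100a3, a calcium-binding protein of the hair cuticle and a PADI3 substrate there, was close to absent in controls and present in every mutant library. In right atria it had 43.0, 58.3, 36.3, 56.8 and 39.0 normalized counts in mutants, against 1.91, 0, 0, 0 and 0.92 in controls. These were 239 reads against 3, a ratio per normalized depth of 76.7 with an exact 95% counting interval of 25.9 to 375. It passed the filter on low values there through the mutant libraries alone, and without the filter its limma adjusted p was 1.36e-06. In left atria it had 10.6, 3.66, 4.98, 4.81 and 7.13 normalized counts in mutants, or 37 reads, and no read in any control library. Against a floor of 3 reads over the control group it was 10.4-fold higher in mutants per normalized depth. That ratio leaves out the counting error of the 37 reads and is no lower bound. It did not pass the filter in left atria, and without it the adjusted p was 0.000871.

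Mbp, myelin basic protein, had 2362, 2697, 2307, 1546 and 2329 normalized counts in mutant right atria, against 899, 1158, 1090, 1280 and 1572 in control right atria. Mutant replicate 4 lay just below control replicate 5, and the log2 difference was 0.91 ± 0.16 (limma adjusted p = 0.00347). In left atria its log2 difference was 0.59 ± 0.21 (adjusted p = 0.220), and it passed only without mutant replicate 4 (0.80 ± 0.15, adjusted p = 0.0143).

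Des, the intermediate filament protein desmin, fell in right atria, where 448 of all tested genes fell (3.14%). It had 12765, 15926, 14152, 13632 and 14857 normalized counts in mutants, against 18611, 21437, 21583, 26606 and 27260 in controls. Every mutant library was below every control, as for 3.83% of tested genes, and the log2 difference was -0.68 ± 0.11 (limma adjusted p = 0.00199). With all 4 groups in 1 model the same difference did not pass (SE 0.23, adjusted p = 0.186). In left atria Des differed by 0.20 ± 0.28 on the log2 scale and did not pass (adjusted p = 0.678). Myh6 and Actc1, sarcomere genes and the most abundant listed members there, differed in left atria by 0.42 ± 0.28 (adjusted p = 0.414) and by 0.12 ± 0.23 (adjusted p = 0.787).

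**Figure D3:**
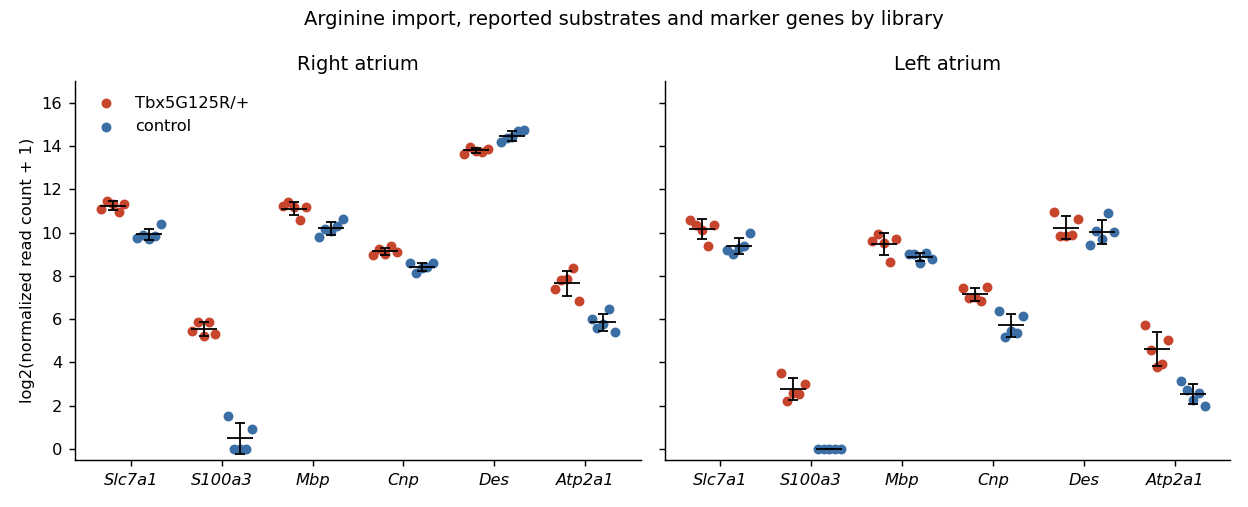
Each point is 1 library, plotted as log2(normalized read count + 1) for an arginine transporter (Slc7a1), reported substrates (S100a3, Mbp, Des) and marker genes (Cnp, Atp2a1), with Tbx5G125R/+ left of control and bars giving the mean and SD of 5 libraries. S100a3 had 36.3 to 58.3 normalized counts in mutant right atria, against 0 to 1.91 in control right atria.

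Markers of the cell types in which deiminase genes are known were then set beside Padi2. Their part in the difference of Padi2 was not tested. Over all tested genes limma called 6.23% in right and 1.2% in left atria, and each count of called markers stands beside these shares. For oligodendrocytes and Schwann cells 6 of 11 markers were tested in right atria, of which 2 rose, Cnp and Mbp, and 4 did not pass. Mbp is also in the substrate list, so its call is the same call already counted there. There 3 changes were positive and 3 negative, with a median of -0.02, and in left atria 2 of 4 were positive, with a median of 0.19. Summed normalized counts of the list were 3577 to 4529 in mutant and 3077 to 3543 in control right atria, and 1635 to 1926 in mutant and 1507 to 1762 in control left atria. Cnp, an enzyme of myelin, had 497, 602, 514, 665 and 544 in mutant right atria, against 384, 277, 332, 341 and 381 in control right atria, a log2 difference of 0.72 ± 0.11 (limma adjusted p = 0.0011, or 0.0613 with all 4 groups in 1 model). In left atria Cnp was the 1 marker of 4 tested that rose. It had 170, 126, 127, 112 and 179 in mutants, against 81.7, 35.3, 43.5, 40.4 and 69.6 in controls (log2 difference 1.44 ± 0.25, limma adjusted p = 0.0101). Every mutant library lay above every control there, as for 2.02% of tested genes. Pmp22, a peripheral myelin protein, differed by -0.40 ± 0.16 in right atria (adjusted p = 0.161) and by -0.39 ± 0.18 in left atria (adjusted p = 0.300). Mbp and Pmp22 together held most of the summed counts of the list. In right atria Mbp had 1546 to 2697 in mutants and 899 to 1572 in controls, and Pmp22 had 883 to 1426 in mutants and 1120 to 1853 in controls.

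For skeletal muscle 6 of 12 markers were tested in right atria, of which 1 rose and 1 fell by limma and 4 did not pass, beside 6.23% of all tested genes called. All 6 had an unadjusted p under 0.05, with 3 positive and 3 negative changes, and DESeq2 called 2 higher and 3 lower. Atp2a1, the calcium pump of fast skeletal muscle, had 166, 224, 230, 328 and 114 normalized counts in mutant right atria, against 62.9, 47.6, 54.3, 87.5 and 41.5 in control right atria (log2 difference 1.80 ± 0.26, limma adjusted p = 0.00099). In left atria it had 52.3, 22.8, 12.9, 14.4 and 31.7 in mutants, against 7.74, 5.70, 3.78, 5.06 and 2.94 in controls (log2 difference 2.08 ± 0.41, adjusted p = 0.0214), and was the 1 marker of 5 tested that was called (1.2% over all tested genes). It passed the filter on low values there through the mutant libraries alone, with a control mean of 5.04, so little is read from the call. That call was lost without mutant replicate 1, 2 or 5 or control replicate 2, 3 or 5 (adjusted p 0.0540 to 0.0748), while the log2 difference was 1.80 to 2.13 in these fits. Mybpc2, a myosin-binding protein of fast fibres, was lower in mutant right atria (log2 difference -0.57 ± 0.11, adjusted p = 0.00833, or 0.501 with all 4 groups in 1 model). Summed counts of the list were 11397 to 14103 in mutant and 13046 to 19078 in control right atria, and 474 to 892 in mutant and 419 to 1338 in control left atria. Most of these sums was 1 gene, Ckm, muscle creatine kinase. It had 10675 to 13270 in mutant and 12356 to 18558 in control right atria, and 413 to 732 in mutant and 353 to 1259 in control left atria. The sums are therefore no level of skeletal muscle. Myod1 and Tnnc2, defining genes of skeletal muscle, were at 0 in every library of both atria.

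Neutrophil markers were scarce. Of 14 listed, 2 were tested in right and 1 in left atria, and none was called by limma, edgeR or DESeq2 or had an unadjusted p under 0.05 by limma. Their summed counts were 122 to 258 in mutant and 158 to 256 in control right atria, and 18.3 to 63.7 in mutant and 48.0 to 68.4 in control left atria, where Ngp, Mpo, Elane and Prtn3 were at 0 throughout. A large part of the right atrium sum was the protease gene Mmp9, at 85.1 to 210 in mutants and 114 to 194 in controls. Macrophage markers, all 12 tested, had none called by limma in either atrium, with 9 at an unadjusted p under 0.05, 11 negative changes and a median log2 change of -0.36 in right atria, and 1, 10 and -0.07 in left atria. DESeq2 called 1 of them in left atria and edgeR none in either. Summed macrophage counts were 9467 to 13586 in mutant and 13194 to 18855 in control right atria, and 3046 to 5678 in mutant and 3760 to 6020 in control left atria.

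Of 12 keratinocyte markers 4 were tested in right atria, and S100a3, which the substrate list also holds, was the only one called. S100a3 passed the filter through the mutant libraries alone, and 6.23% of all tested genes were called there. Tchh, trichohyalin, differed by 0.14 ± 0.16 (limma adjusted p = 0.636) and Krt10 by -0.08 ± 0.15 (adjusted p = 0.802) there on the log2 scale. In left atria 3 were tested and none was called by limma, edgeR or DESeq2, with 1 at an unadjusted p under 0.05. Summed keratinocyte counts were 234 to 313 in mutant and 205 to 291 in control right atria, and 153 to 264 in mutant and 166 to 319 in control left atria. Flg was at 0 in right and Krt1 in left atria.

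None of the 11 cardiomyocyte markers was called by limma in either atrium, with 0 at an unadjusted p under 0.05 in right and 1 in left atria, edgeR calling none and DESeq2 1 in left atria. Their median log2 change was 0.02 in right atria and 0.35 in left atria, where all 11 changes were positive. Summed counts were 2084000 to 3441800 in mutant and 2297500 to 3003700 in control right atria, and 545510 to 1169300 in mutant and 606220 to 1093700 in control left atria. The fibroblast, endothelial and mast cell counts that follow stand beside 6.23% of all tested genes called in right and 1.2% in left atria. Of 9 fibroblast markers 1 fell in right atria, Postn, periostin of activated fibroblasts (log2 difference -1.16 ± 0.24, limma adjusted p = 0.011, or 0.0759 with all 4 groups in 1 model), and none was called in left atria by limma, edgeR or DESeq2 (1 at an unadjusted p under 0.05). All 9 changes were negative in both atria, and summed counts were 54630 to 92572 in mutant and 76693 to 114550 in control right atria, and 29905 to 69588 in mutant and 49533 to 78232 in control left atria. Of 8 endothelial markers 1 rose in right atria, Kdr, a VEGF receptor (log2 difference 0.60 ± 0.07, adjusted p = 9.49e-05), and none was called in left atria by limma or edgeR, with 3 at an unadjusted p under 0.05 and 1 called by DESeq2. Summed endothelial counts were 33084 to 47480 in mutant and 30327 to 50479 in control right atria, and 9140 to 10856 in mutant and 9075 to 17766 in control left atria. Of 8 mast cell markers 2 were tested in each atrium and none was called by limma or edgeR, with 1 at an unadjusted p under 0.05 and 1 called by DESeq2, in right atria in both cases. Summed mast cell counts were 184 to 306 in mutant and 279 to 334 in control right atria, and 63.6 to 97.3 in mutant and 50.1 to 111 in control left atria.

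Finally, genes with a pattern like that of Padi2 over the 10 libraries of an atrium were sought among tested genes averaging 50 normalized counts or more, 11771 in right and 9702 in left atria, by Pearson correlation of log2(normalized count + 1). The correlations are descriptions: the libraries share genotype, depth and scaling, and over all 10 libraries they reflect mainly the gap between genotypes for which Padi2 was chosen. In right atria the highest were Neto2, an auxiliary subunit of glutamate receptors (r = 0.998), Iqgap2, a cytoskeletal scaffold (r = 0.996), Sema3a, an axon guidance cue (r = 0.994), Rarres1 (r = 0.992) and the predicted gene Gm14267 (r = 0.992). In left atria they were Iqgap2 (r = 0.982), Il1rapl2 (r = 0.979), Rab3b (r = 0.967), Wdr3 (r = 0.965) and Hydin (r = 0.965). Control means lay under 50 for Rarres1 (30.581) and Gm14267 (20.175) in right atria. The same held for Il1rapl2 (1.7645), Rab3b (13.965) and Hydin (36.358) in left atria. Those genes met the cut of 50 through the mutant libraries alone, which favours genes with a gap like that of Padi2. Little is therefore read from their place among the highest.

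With the group means removed, so that only the spread within genotypes was left, the most similar genes in right atria were Neto2 (r = 0.930), Zfp687 (r = 0.922) and Ltbp2 (r = 0.908), each over 10 libraries. Neto2 had 782, 958, 777, 1036 and 715 normalized counts in mutant right atria, against 197, 127, 168, 180 and 130 in control right atria. Its highest mutant libraries, 4 and 2, and its lowest control libraries, 2 and 5, were those of Padi2. In left atria the most similar were Srf (r = 0.946), Lrrfip2 (r = 0.934) and Tsfm (r = 0.933), and Neto2 reached only 0.259 there. For comparison, the correlation of Padi2 with the share of mitochondrial rRNA within genotypes was -0.355 in right and 0.149 in left atria. No gene was among the 3 most similar in both atria. The correlations of the 3 most similar genes are the highest of 11771 genes in right and 9702 in left atria, over 10 libraries each. Such maxima can be high by selection alone, so nothing is read from their size.

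**Figure D4:**
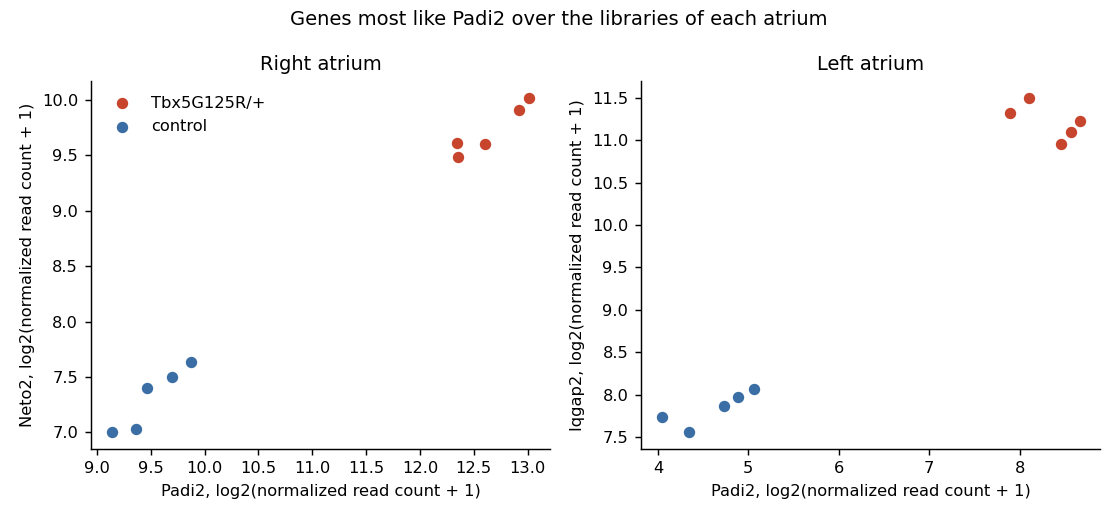
Each point is 1 library, with Padi2 on the x axis and the gene of highest correlation on the y axis, Neto2 in right and Iqgap2 in left atria, both as log2(normalized read count + 1). With group means removed the correlation was r = 0.930 for Neto2 in right and r = 0.185 for Iqgap2 in left atria. Neto2 was also the highest of 11771 genes by that measure, while Iqgap2 was not chosen by it. The values are therefore no comparison of the atria, since the highest in left atria was 0.946, for Srf.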

How the data were processed

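RNA of whole right and left atria was sequenced from 5 Tbx5G125R/+ and 5 control libraries per atrium. Per the labels, libraries were made with a TruSeq kit, aligned with STAR to mm10 and normalized with DESeq2, with no versions given. The authors deposited 1 table per atrium whose values are a signal, the read count divided by the size factor of the library. In every library 100% of nonzero values were whole multiples of 1 step (within 0.01 reads), and division by it gave back reads. In left mutant 3 the step was near 1, at 0.9957, so that reads and normalized counts were nearly equal there. The deposited fold changes and p-values of the authors were not used.

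Entries without values (6275) and repeats of an identifier (1203) were removed from the right table. Genes averaging 10 or more were tested by limma 3.58.1 on log2(normalized count + 1), mutant minus control within an atrium, with trend estimation of the variance, and called at a Benjamini-Hochberg adjusted p under 0.05. Members with few reads were also tested by exact two-sided permutation where a group had at least 3 reads. Alternatives were edgeR 4.0.16 and DESeq2 1.42.0 on recovered reads, other pseudocounts, filters and scalings, a replicate block, all groups in 1 model, and leaving out each library. The limma step was tested on simulated data. Gene models come from GENCODE M21 and promoters from RefSeq.

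The members and lists were chosen with earlier results of these data known. Named are the members, Tbx5, the nearest tested genes, the called neighbours, from each list up to 5 called members of lowest adjusted p (with fewer than 2 called, up to 2 of highest mean) and the genes most like Padi2. Padi6, Gm26226, Gm13031, the neighbours other than Rcc2 and Sdhb, and second-atrium values of named genes lie outside this rule and were added once their values were known. The study's methods count 5 animals per genotype for right atria. For left atria the labels do not say that libraries come from separate animals, and p-values there may measure only the spread between libraries.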

Additional observations from a re-analysis of the deposited data

Results flagged for a closer look

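Within groups of 5 libraries, 8 of 146 groups of the members and named genes held 1 library set far apart from the other 4, where chance gives about 1 in 20. Among the members these were single reads, of Padi1 in a control left atrium (0.86 normalized counts) and of Padi3 in a mutant left atrium (0.707). Slc7a1 was highest in control right atrium 5 (1328). Mybpc2 was lowest in mutant right atrium 5 (277), and Ttn, a sarcomere gene, was lowest in control right atrium 5 (671320). In left atria Mmp9, a protease of neutrophils, was highest in mutant 4 (48.1), Ckm, muscle creatine kinase, was highest in control 4 (1259), and Kdr was highest in control 1 (3410). No library of Padi2 stood apart in this way.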

How the results depend on the processing

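The log2 change of Padi2 stayed within the spread between replicates under every alternative run, between 3.05 and 3.23 in right and 3.58 and 3.84 in left atria without each library in turn, and its left minus right difference between 0.44 and 0.69. Scaled to reads outside mitochondrial rRNA, an alternative chosen after seeing the data, the median of all tested left atrium genes moved to 0.13 and the change of Padi2 to 3.86. Genes called in right atria numbered 890, and 267 with all 4 groups in 1 model, 870 by edgeR, 1312 by DESeq2 and 603 to 1088 without each library. In left atria they numbered 158, and 1235 with all 4 groups in 1 model, 170 by edgeR, 431 by DESeq2 and 71 to 371 without each library, with 371 without mutant replicate 4 and 100, 92 and 94 without mutant replicate 2, 3 and 5, and 71 and 80 without control replicate 2 and 3. Mutant and control libraries of an atrium shared replicate numbers but, being of different genotypes, no animals, and the labels do not say what a number stands for. Their same-numbered deviations correlated at -0.0288 to 0.268 in right and 0.0275 to 0.317 in left atria. Right and left libraries of the same number were not compared. Above 0.1 were 2 of 5 pairs in right and 4 of 5 in left atria, and in 3 of 5 pairs of each atrium the mutant library correlated best with its own number, a hint of pairing that falls short of every pair. The replicate block gave 885 calls in right and 693 in left atria, 1 call among the neighbours in right atria and 1 among arginine genes in left atria. Without control replicate 1 the neighbours also had 1 call in right atria (range 0 to 1), and 0 in left atria whichever library was left out. Arginine genes called were 2 by DESeq2 in right atria (1 to 2 without each library), and in left atria 1 by DESeq2, 4 with all groups in 1 model and 0 to 1 without each library. With all groups in 1 model Des, Cnp, Mybpc2 and Postn in right atria no longer passed (adjusted p 0.186, 0.0613, 0.501 and 0.0759 by limma) with log2 changes the same and larger SEs. Skeletal muscle markers called in right atria were 5 under the replicate block. The cause was not tested. At 17.5 to 26.8 M reads per library, changes of Padi1 and Padi4 in right atria and of Padi1 and Padi3 in left atria rested on too few reads to resolve a difference.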
